A study of Homo sapiens with 4 samples.

Results

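The leukocyte integrins were followed on 4 arrays of RNA from MDS-L cells and their AZA-resistant derivative, MDS-L/CDA, each with and without 5-azacytidine (AZA). The set held 10 genes that were chosen by name, ITGB2 and its partners ITGAL, ITGAM, ITGAX and ITGAD, ITGB1 and its partners ITGA4 and ITGA5, and ITGB7 with its partner ITGAE. They were represented by 16 of the 58185 probes and 10 of the 43311 gene names analysed. ITGB2 led to the choice of these genes because of its measured fall in AZA-treated MDS-L/CDA cells, so that value and the others of the same comparisons are given as descriptions. Signal was well above background, by the flag of the scanner software, for 12 of the 16 probes on at least 1 array and for 9 probes on all 4, and these 12 probes belonged to 9 of the 10 genes.

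Integrins are receptors made of an alpha and a beta chain that hold a cell to its neighbours and to the surrounding matrix. ITGB2 encodes the beta 2 chain, a protein of leukocytes, which pairs with the alpha chains of LFA-1 (ITGAL), Mac-1 (ITGAM), p150,95 (ITGAX) and the alpha D receptor (ITGAD). The alpha 4 chain (ITGA4) pairs with beta 1 to form VLA-4, which holds haematopoietic progenitors in the bone marrow, or with beta 7 to form a receptor for homing to the gut. An alpha chain that finds no beta chain is not carried to the cell surface.

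MDS-L is a line established from myelodysplastic cells, and MDS-L/CDA is its derivative made resistant to AZA by transduction of CDA, whose product deaminates cytidine analogues. Each line was treated for 72 h with vehicle (0.1% DMSO) or with 1 μM AZA, an inhibitor of DNA methylation, in medium with IL-3 that all 4 cultures shared. The RNA of each culture was hybridized to 1 single-colour Agilent array, so there were 4 conditions with 1 array each, no replicates and no test. The design asked which genes respond to AZA in the sensitive line and which in the resistant line. One label field gives the AZA dose as 1 mM, and one field names the opposite treatment for 2 arrays, AZA-treated MDS-L and vehicle-treated MDS-L/CDA. The title, description and source name of those arrays give the treatments used here.

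All signals below are processed scanner intensity scaled so that every array has the same 75th percentile. The unscaled 75th percentile lay between 37.3 and 52.9, and 32.6% to 36.5% of the probes were well above background. No spot was saturated. The lowest scaled signal that counted as well above background was 8.61 and 8.63 in MDS-L (vehicle, then AZA) and 12.3 and 13.4 in MDS-L/CDA. Between spots of one probe on the same array the SD was 0.19 to 0.30 on the log2 scale, which is an error of the spots and not of the cultures. The CDA probe was well above background on 0 of the 4 arrays (4.77, 4.27, 4.98 and 6.60 in the same order), and the sources used here do not say whether it lies in the transduced sequence. A gene was called increased or decreased where its brightest probe differed by at least 2-fold, and each level below belongs to 1 probe, so levels of different probes are not compared.

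The cells had the markers of haematopoietic cells. Of 8 haematopoietic and progenitor markers 7 were well above background on every array, and MPO, which encodes myeloperoxidase of the myeloid granules, was not well above background on any. With AZA, KIT, the stem cell factor receptor, increased 47.3-fold in MDS-L (22.8 to 1080) and 3.58-fold in MDS-L/CDA (15.7 to 56.2), and CD38 decreased 2.79-fold in MDS-L (1066 to 382), while the sum of the 8 markers lay between 6612 and 7341 on the 4 arrays. None of 3 epithelial and 3 fibroblast markers reached that level. Markers of other blood cells differed with AZA mainly in MDS-L, where each of the lists below held a called marker. In MDS-L/CDA the called ones were TPSAB1 and CPA3 of the mast cell list and NKG7 of the NK cell list. No T cell, B cell, monocyte, megakaryocyte or erythroid marker was called there. The 3 mast cell markers summed to 704 with vehicle and 2737 with AZA in MDS-L, and to 240.4 and 1237 in MDS-L/CDA. In the same order the 5 T cell markers summed to 25.3, 274, 24.3 and 39.7, with CD3E, CD3G and CD5 never well above background, and the 4 monocyte markers on the array to 31.9, 56.6, 13.3 and 50.4, with FCGR1A and MRC1 never well above background. Of the 4 B cell markers 3 were well above background on each array (sums 839, 710, 935 and 958), and MS4A1 on none. The 3 NK cell markers summed to 55.0, 34.3, 33.8 and 62.3, with KLRD1 never well above background, the 4 megakaryocyte markers, which include the integrin chain ITGA2B, to 463, 759, 637 and 1027, with GP1BA and PF4 at background, and the 3 erythroid markers on the array to 19.2, 52.6, 28.6 and 29.4, with ALAS2 at background. Their part in the integrin values was not tested. In RNA of whole cultures, fewer cells of a type and less RNA per cell cannot be told apart.

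The ITGB2 and ITGA4 results turn on the following probes, which are 60 bases long and are written 5′ to 3′ as in the array design with G and C in capitals, because their base content differs. The ITGB2 3′ probe lies near the end of the gene at chr21:46305926-46305985 (hg19, minus strand), has a stop codon in all reading frames, and is shown by its first 30 bases. The ITGB2 junction probe matches chr21:46321625-46326865, a span of 5241 bases that it can cover only across a splice junction. ITGA4 has 3 probes on the plus strand of chromosome 2, and the one shown, at chr2:182399600-182399659, lies in the coding sequence. The ITGB1 probe, at chr10:33200507-33200566 on the minus strand, is shown as the probe with the most spots.
ITGB2 3′ probe: GCCaatttatttaCatttaaaCttGtCaGG
ITGB2 junction probe: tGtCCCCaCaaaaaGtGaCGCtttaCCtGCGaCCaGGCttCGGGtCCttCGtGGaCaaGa
ITGA4 coding probe: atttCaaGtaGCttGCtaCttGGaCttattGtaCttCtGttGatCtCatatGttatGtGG
ITGB1 probe: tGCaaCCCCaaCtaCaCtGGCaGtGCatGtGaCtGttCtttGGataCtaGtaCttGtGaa
G and C made up 26.7% of the ITGB2 3′ probe, 55% of the ITGB2 junction probe, 35% of the ITGA4 coding probe and 45% of the ITGB1 probe.

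ITGB2, the shared beta chain of the leukocyte-specific integrins, decreased in AZA-treated MDS-L/CDA cells by its 3′ probe. The signal of this probe was 1541 with vehicle and 819 with AZA in MDS-L, and 1734 and 72.9 in MDS-L/CDA, with scanner errors of 154, 81.9 and 173 on the first 3 arrays and 8.0 on the last. The first 3 arrays were high and the last stood apart below them. AZA decreased the signal 23.8-fold in MDS-L/CDA (log2 ratio -4.57), and the ratio in MDS-L was 0.53 (log2 ratio -0.91), short of the 2-fold threshold. The log2 ratio of the 2 lines differed by 3.66, which contains the fall for which ITGB2 was chosen. The spot SD for such a difference, 0.48, comes from probes with repeated spots and holds no variation between cultures. It is therefore no measure of support for this value. Among 14137 genes measured on both arrays of MDS-L/CDA, ITGB2 ranked 1 from the lowest ratio. Between the lines, its signal was 11.2-fold lower in MDS-L/CDA than in MDS-L with AZA (log2 ratio -3.49, rank 16 of 14542), while the ratio with vehicle was 1.13.

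The second ITGB2 probe did not show a fall of this size. The junction probe gave 15.3 with vehicle and 15.0 with AZA in MDS-L, and 31.3 and 16.6 in MDS-L/CDA, the last of which was not well above background. Its ratio was 0.98 in MDS-L. In MDS-L/CDA its signal was 1.89-fold lower with AZA (log2 ratio -0.92), under the threshold and computed from that dim AZA signal. With normexp background correction this log2 ratio was -0.18. With vehicle it was 2.05-fold higher in MDS-L/CDA than in MDS-L. The 2 probes were designed on different transcripts. In MDS-L/CDA the junction probe lay between 31.3 with vehicle and a background limit of 13.4 with AZA, so a fall as large as that of the 3′ probe could not be measured with it.

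The low ITGB2 value rests on 1 spot. The spot of the 3′ probe on the MDS-L/CDA AZA array was read from 46 pixels with a mean of 114 and a coefficient of variation of 26.1%, against 9.10% to 12.9% on the other 3 arrays, where the means were 964 to 1861. It carried 0 outlier flags, and its local background was 51, within the 51 to 54 of all 4 arrays. Around it, within 6 rows and 3 columns, 27 probes measured on both MDS-L/CDA arrays had log2 ratios of -0.91 to 0.28 with a median of -0.16.

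**Figure D1:**
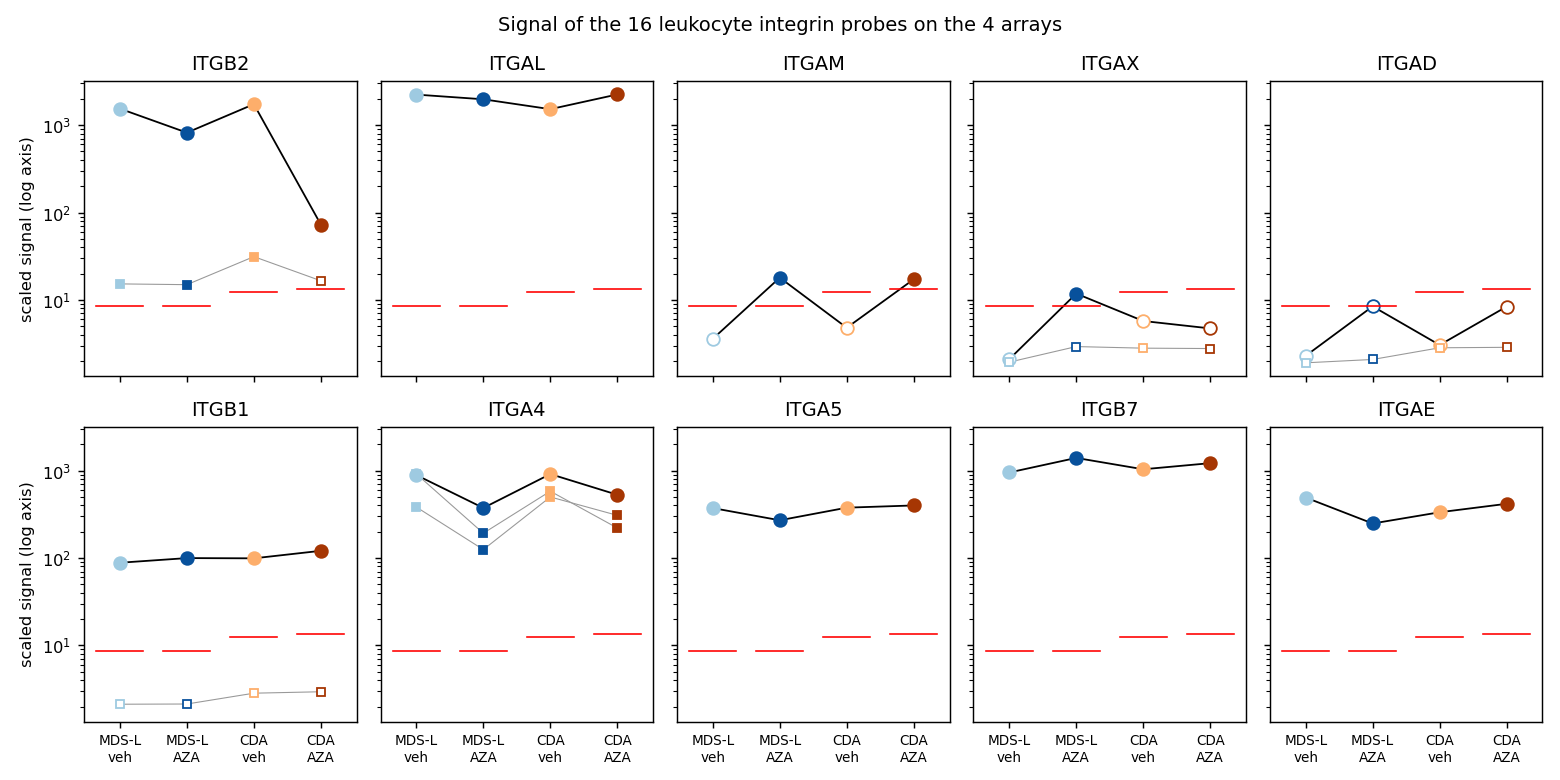
Scaled signal (log axis) of the 16 integrin probes on the 4 arrays, with 1 panel per gene (veh, vehicle; CDA, MDS-L/CDA). Circles are the brightest probe of a gene, squares its other probes, open symbols are signals not well above background and red lines the lowest well-above-background signal of each array. ITGB2 falls from 1734 to 72.9 between the MDS-L/CDA arrays, whereas the 3 ITGA4 probes are lower with AZA in both lines.

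Probe composition moved with large decreases. This comparison, and its limits of 40% G and C and 4-fold, were chosen after the data had been seen. In MDS-L/CDA, 15 of 5335 genes whose probe had up to 40% G and C were at least 4-fold lower with AZA (0.281%), against 2 of 8802 genes with richer probes (0.0227%). In MDS-L the counts were 46 of 5747 (0.800%) and 13 of 9357 (0.139%). Of the 17 genes in MDS-L/CDA that were at least 4-fold lower, ITGB2 included, 1 other gene had a further probe measured on both arrays, with a log2 ratio of 0.10. Of the 59 such genes in MDS-L, 10 had a further probe measured on both arrays, of which 3 were at least 2-fold lower, with a median log2 ratio of -0.70. Set against probes of similar base content, whose median log2 ratio was -0.17 over 159 probes in MDS-L/CDA, the log2 ratio of ITGB2 was -4.41, and in MDS-L it was -0.47. The part of base content in the ITGB2 value was not tested.

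**Figure D2:**
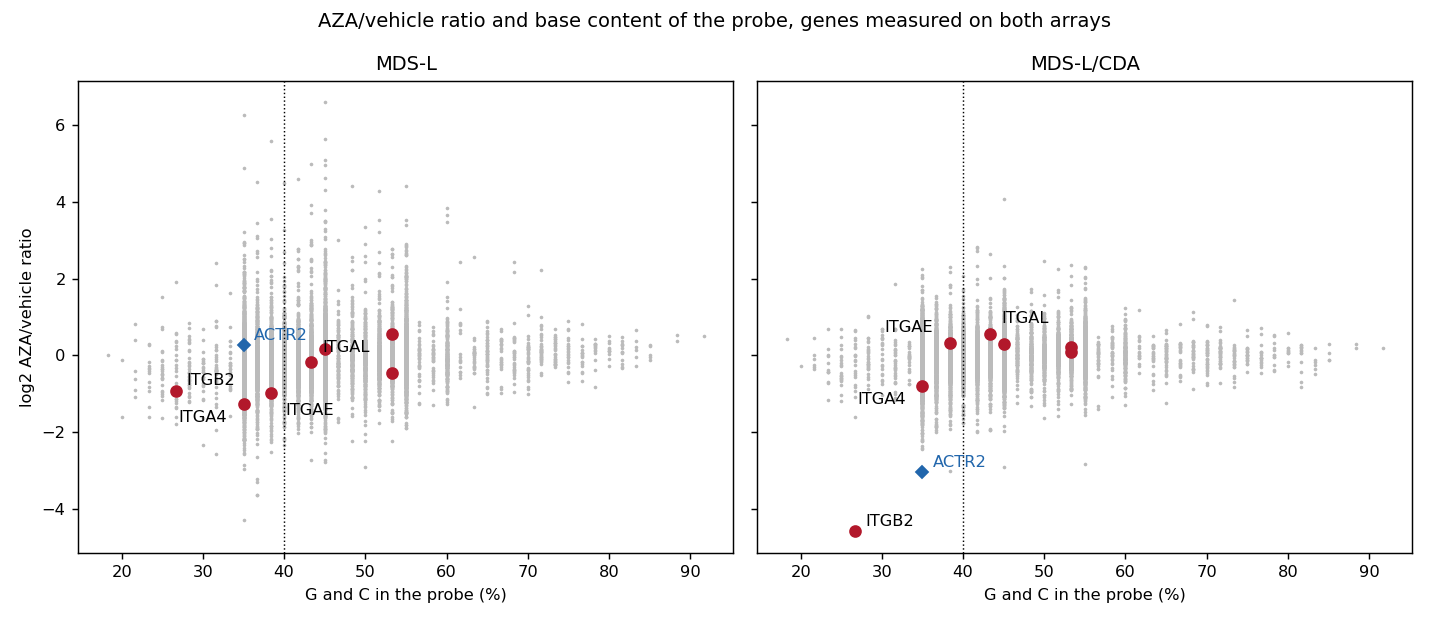
Log2 AZA/vehicle ratio against the share of G and C in the probe (%), for genes measured on both arrays of a line. Red circles are the leukocyte integrins, the blue diamond is ACTR2 and grey points are other genes; the dotted line marks 40%. ITGB2, at 26.7%, has the lowest ratio in MDS-L/CDA, and 15 of the 17 genes at least 4-fold lower there lie at or left of the line.

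The genes whose pattern over the 4 arrays was most like that of the ITGB2 3′ probe also dropped on the MDS-L/CDA AZA array. Likeness was the Euclidean distance between centred log2 signals, over 4 arrays and 17809 probes. The nearest was ACTR2 (distance 1.37), a subunit of the Arp2/3 complex that branches actin filaments. Its signal was 447 and 537 in MDS-L (vehicle, then AZA) and 463 and 56.7 in MDS-L/CDA, an 8.17-fold decrease with AZA in MDS-L/CDA. No other ACTR2 probe was on the array. The other 4 were the transcript ENST00000520544 (distance 1.73), ZSCAN2 (1.75), a zinc finger gene, C1orf216 (1.84), and MRS2 (1.87), a mitochondrial magnesium channel, with signals 4.49-fold, 7.09-fold, 4.58-fold and 4.2-fold lower with AZA in MDS-L/CDA. MRS2 was also 3.15-fold lower with AZA in MDS-L. These genes were picked for this pattern, and it is therefore no result about them.

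Of the alpha chains that pair with ITGB2, ITGAL was the only one well above background with vehicle, so a fall with AZA could be measured for it alone. ITGAL, the alpha chain of LFA-1, gave 2233 with vehicle and 1973 with AZA in MDS-L, and 1521 and 2241 in MDS-L/CDA. The 4 signals lay within 1.5-fold of each other, with AZA/vehicle ratios of 0.88 in MDS-L and 1.47 in MDS-L/CDA. The sign of the MDS-L ratio turned under 2 of the other 5 normalizations (log2 -0.72 to 0.06 over all of them).

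ITGAM, the alpha chain of Mac-1 and a marker of myeloid maturation, was well above background with AZA only. With AZA its signal was 18.0 in MDS-L and 17.2 in MDS-L/CDA, and the vehicle arrays gave 3.59 and 4.81, not well above background. AZA increased it at least 2.09-fold in MDS-L and at least 1.40-fold in MDS-L/CDA, of which the first passed the threshold. Both AZA signals were close to the background limit, and the MDS-L call was lost with median scaling, quantile normalization, normexp, the authors' value table, the added Z score, or where both arrays had to be well above background.

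ITGAX, the alpha chain of p150,95, was well above background on 1 array by its brighter probe, with 11.8 in AZA-treated MDS-L. The MDS-L vehicle array gave 2.10, and MDS-L/CDA gave 5.74 with vehicle and 4.72 with AZA. The MDS-L signal was at least 1.37-fold higher with AZA, under the threshold, and its other probe never reached that level. Both ITGAD probes stayed below it on all 4 arrays, the brighter giving 2.30 and 8.44 in MDS-L and 3.05 and 8.39 in MDS-L/CDA. No ratio is given for ITGAD.

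ITGA4, the alpha chain of VLA-4, decreased with AZA in MDS-L by all 3 of its probes. The coding probe gave 889 with vehicle and 374 with AZA in MDS-L, and 912 and 529 in MDS-L/CDA. AZA decreased this signal 2.38-fold in MDS-L (log2 ratio -1.25), and the ratio in MDS-L/CDA was 0.58 (log2 ratio -0.79), short of the threshold. The probe nearest the start of the gene (chr2:182322335-182322394), with 55% G and C, gave 382.5 and 125 in MDS-L and 499 and 308 in MDS-L/CDA, a 3.07-fold decrease in MDS-L and a ratio of 0.62 in MDS-L/CDA. The probe nearest its end (chr2:182402275-182402334), with 35% G and C, gave 915 and 192 in MDS-L and 581 and 220.5 in MDS-L/CDA, a 4.77-fold decrease in MDS-L and a 2.64-fold decrease in MDS-L/CDA. Every ITGA4 probe was therefore lower with AZA in each line, and the MDS-L ratio was the lower by 0.46 to 0.92 on the log2 scale. The spot SD for such a difference was 0.48, which holds no variation between cultures, and the difference was not tested. With AZA, the probe nearest the start was 2.47-fold higher in MDS-L/CDA than in MDS-L, and the others had ratios of 1.42 and 1.15.

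The beta chains that pair with ITGA4 were not called in any comparison. ITGB1, the most widely shared beta chain, was measured by 10 spots on each array. Their mean was 89.1 ± 11.6 (SD, n = 10 spots) with vehicle and 100.5 ± 12.7 (n = 10) with AZA in MDS-L. In MDS-L/CDA it was 99.7 ± 10.8 (n = 10) with vehicle and 121.8 ± 15.2 (n = 9, 1 outlier spot being left out) with AZA. The spots of all 4 arrays overlapped, and the AZA/vehicle ratios were 1.13 in MDS-L and 1.22 in MDS-L/CDA. Under median scaling the MDS-L log2 ratio was -0.37, so its sign depends on the scaling. The other ITGB1 probe, near the start of the gene, was dim on all 4 arrays. ITGB7, the beta chain of the gut-homing receptors, gave 951 with vehicle and 1396 with AZA in MDS-L, and 1035 and 1216 in MDS-L/CDA, with AZA/vehicle ratios of 1.47 and 1.18.

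ITGA5, which with ITGB1 forms the fibronectin receptor, gave 372.5 and 270.2 in MDS-L and 377 and 399 in MDS-L/CDA, with AZA/vehicle ratios of 0.73 in MDS-L and 1.06 in MDS-L/CDA. The MDS-L/CDA ratio was near 1, and its log2 value changed sign between normalizations (-0.05 to 0.09). ITGAE, the alpha chain that pairs with ITGB7 and binds E-cadherin, gave 492 with vehicle and 248 with AZA in MDS-L, and 334 and 417 in MDS-L/CDA. Its signal was 1.98-fold lower with AZA in MDS-L, just short of the threshold, and the ratio in MDS-L/CDA was 1.25. The 2 lines lay on opposite sides of 1, by 1.31 on the log2 scale.

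**Figure D3:**
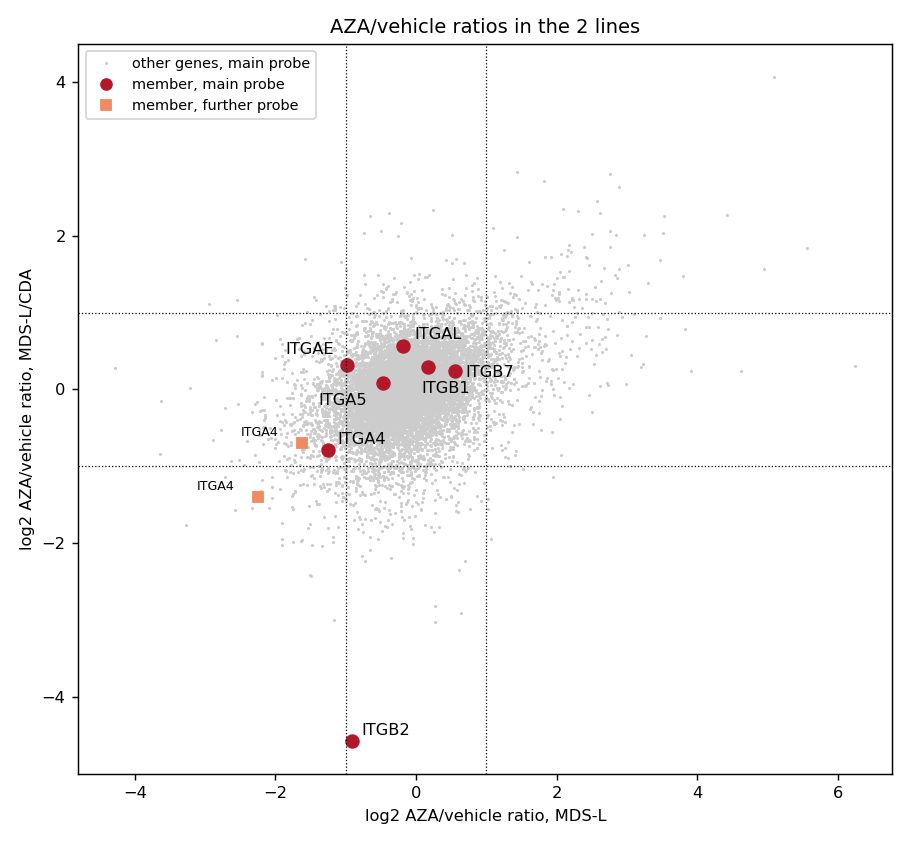
Log2 AZA/vehicle ratio in MDS-L (horizontal) and MDS-L/CDA (vertical) for probes measured on all 4 arrays. Red circles are the brightest probes of 7 leukocyte integrins, orange squares the other 2 ITGA4 probes and grey points other genes; dotted lines mark 2-fold. ITGB2 lies far below the rest (-0.91, -4.57) and the ITGA4 probes lie left of the 2-fold line.

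Across the genes, 2 of the 9 measured leukocyte integrins were called with AZA in MDS-L, ITGAM higher and ITGA4 lower, where 12.8% of the 17172 measured genes were called. The background was 6.73% for higher and 6.03% for lower. In MDS-L/CDA 1 of 8 was called, ITGB2 lower, where 5.59% of the 15393 measured genes were called, 2.53% higher and 3.07% lower. The median log2 ratio of the integrins was -0.18 in MDS-L, against -0.13 over all genes, and 0.26 in MDS-L/CDA, against 0.02. With vehicle, 0 of 7 integrins were called between the lines, where 4.61% of the 16015 measured genes were called (1.97% higher and 2.64% lower), and the largest differences were those of ITGAE and ITGAL, with MDS-L/CDA/MDS-L ratios of 0.68 each. With AZA, 1 of 9 was called, ITGB2, where 10.7% of the 16739 measured genes were called, 5.43% higher and 5.23% lower. An alternative rule required a Z score of at least 2 as well, but used the computed signals of dim probes without the background limit. It called 1, 2, 0 and 1 of the integrins in these 4 comparisons. Of all measured genes it called 6.95%, 5%, 4.09% and 6.1%. In MDS-L/CDA it added ITGAM, by a computed ratio of 3.585 where the bound was 1.396. Nothing is read from these counts, since the genes were chosen with the values known and each comparison shares its arrays with 2 others.

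Genes that act with integrins were described by 5 lists. Over all measured genes, 12.8% were called with AZA in MDS-L and 5.59% in MDS-L/CDA. The median log2 ratios over all genes were -0.13 and 0.02. Nothing is read from the counts of these short lists. Of 16 other integrin subunits 7 were measured in MDS-L, where AZA increased ITGA7, a laminin receptor chain, from 96.4 to 267 and ITGB5, a vitronectin receptor chain, to 48.8 (at least 5.67-fold), and decreased ITGA6, another laminin receptor chain, from 179 to 76.5. In MDS-L/CDA 0 of 6 were called. The median log2 ratio of this list was 0.58 in MDS-L and 0.24 in MDS-L/CDA.

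Of 18 ligands 10 were measured in MDS-L, and AZA increased SPP1, which encodes osteopontin, at least 5.38-fold to 46.3 and THY1 at least 4.91-fold to 42.3, both from signals not well above background. In MDS-L/CDA 0 of 7 ligands were called. ICAM1, ICAM2 and ICAM3, the main ligands of LFA-1, had AZA/vehicle ratios of 1.26, 0.80 and 0.88 in MDS-L and of 1.38, 1.46 and 0.69 in MDS-L/CDA. The median log2 ratio of the ligands was 0.22 in MDS-L and 0.04 in MDS-L/CDA.

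Integrins are switched on from within by talin, kindlin and the RAP1 pathway. Of 18 genes of this inside-out activation 16 were measured in MDS-L. RASSF5, which encodes the RAP1 effector RAPL, increased from 27.3 to 94.5, and APBB1IP, which encodes RIAM, the link between RAP1 and talin, decreased from 2502 to 1074. FYB, the adaptor ADAP, decreased from 127 to 55.9. TLN1, talin 1, and FERMT3, the kindlin of blood cells, had ratios of 1.12 and 1.35. In MDS-L/CDA 0 of 15 were called, and the median log2 ratios were 0.004 in MDS-L and 0.14 in MDS-L/CDA.

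Of 16 genes of outside-in signalling 13 were measured in each line. FGR, a SRC family kinase of myeloid cells that acts downstream of beta 2 integrins, increased 9.64-fold with AZA in MDS-L, from 19.6 to 189, and had a ratio of 1.62 in MDS-L/CDA, from 19.2 to 31.2. No other gene of this list was called with AZA in either line. The median log2 ratio was -0.02 in MDS-L and 0.15 in MDS-L/CDA. All 7 transcription factors known to act on leukocyte integrin genes were measured and 0 were called in either line. SPI1, which encodes PU.1, an activator of ITGAM and ITGB2, gave 3128 with vehicle and 2443 with AZA in MDS-L, and 3483 and 3364 in MDS-L/CDA, with AZA/vehicle ratios of 0.78 and 0.97. In MDS-L the ratios were 0.53 for SP1, 0.60 for CEBPA, 0.76 for GABPA, 0.82 for RUNX3, 1.10 for RUNX1 and 1.78 for CEBPB. In MDS-L/CDA they were, in the same order, 0.62, 0.73, 1.10, 0.78, 0.92 and 1.01. The median log2 ratio was -0.36 in MDS-L and -0.12 in MDS-L/CDA.

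Between the lines with vehicle, 0 of 6 other integrin subunits, 0 of 7 ligands and 0 of 7 transcription factors were called. Of 15 inside-out genes 1 was called, FYB, lower in MDS-L/CDA (32.9 against 127), and of 13 outside-in genes 1 was called, PXN, which encodes the adhesion adaptor paxillin, higher in MDS-L/CDA (426.5 against 181). Between the lines with AZA, 1 of 7 other subunits was called (ITGB5, lower in MDS-L/CDA), and 3 of 10 ligands (SPP1 and THY1 lower, ICAM5 2.04-fold higher). So were 2 of 13 outside-in genes (FGR lower, the kinase SYK 2.01-fold higher), and 0 of 16 inside-out genes and 0 of 7 transcription factors. ICAM5 and SYK lay just past the threshold (log2 ratios 1.03 and 1.01), where the median over all genes was 0.17. Other normalizations are given for the leukocyte integrins only. Over all measured genes, 4.61% were called between the lines with vehicle and 10.7% with AZA. The comparison with AZA shares its arrays with the 2 AZA/vehicle comparisons.

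**Figure D4:**
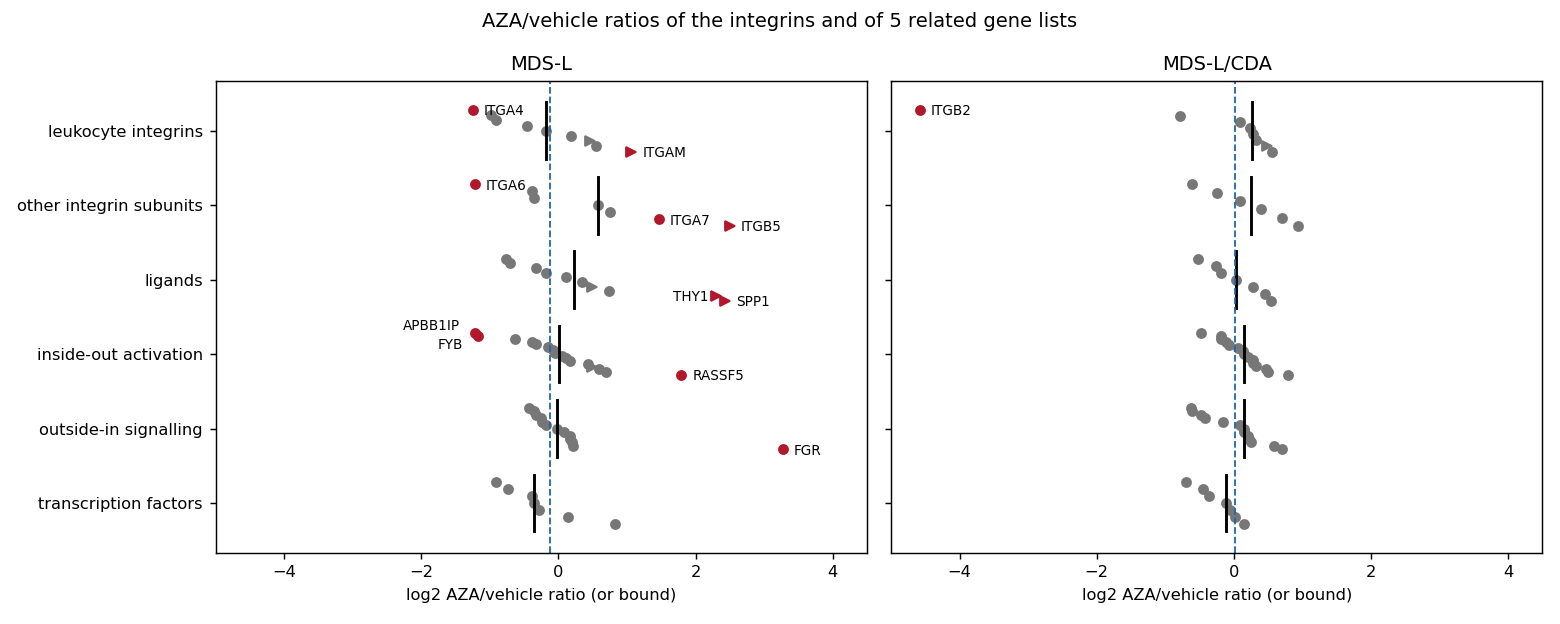
Log2 AZA/vehicle ratio of each measured gene in the leukocyte integrins and 5 related lists, in MDS-L (left) and MDS-L/CDA (right). Triangles are lower bounds, red symbols passed 2-fold, black bars are list medians and the dashed line is the median of all measured genes. In MDS-L/CDA the only red symbol in these 6 lists is ITGB2, at -4.57, the value for which it was chosen. Over all measured genes 5.59% were called there.

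AZA acts on methylation of cytosine in CG pairs, so the upstream sequence of the integrins was described from the RefSeq promoter table (GRCh38.p14), which held 7 windows for 6 of the 10 genes. ITGB2, ITGAL, ITGAX and ITGAD were not matched. In windows of 300 bases, CG pairs numbered 31 for ITGA4, 39 and 4 for the 2 windows of ITGB1, 16 for ITGA5, 10 for ITGAE, 4 for ITGB7 and 2 for ITGAM, and the median of 35116 promoters was 14. The 250 bases upstream of ITGA4, at chr2:181457136-181457385 (plus strand), and of ITGAM, at chr16:31259725-31259974 (plus strand), are shown with CG in capitals, because these 2 genes were the ones called with AZA in MDS-L.
ITGA4 upstream: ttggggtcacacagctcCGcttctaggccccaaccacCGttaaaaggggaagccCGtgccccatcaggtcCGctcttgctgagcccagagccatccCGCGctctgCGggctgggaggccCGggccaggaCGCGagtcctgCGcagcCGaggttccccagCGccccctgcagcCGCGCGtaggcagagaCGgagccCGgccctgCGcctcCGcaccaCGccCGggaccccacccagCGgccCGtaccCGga
ITGAM upstream: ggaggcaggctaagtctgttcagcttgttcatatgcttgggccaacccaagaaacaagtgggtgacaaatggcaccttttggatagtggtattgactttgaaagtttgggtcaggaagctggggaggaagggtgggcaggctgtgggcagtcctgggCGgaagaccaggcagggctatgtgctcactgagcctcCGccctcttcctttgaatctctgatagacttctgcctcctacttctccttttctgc
The PU.1 core GAGGAA, searched on both strands, was in 27.9% of all promoters. It had 2 matches for ITGAM, 2 for ITGB7, 1 for ITGAE, 1 for the first window of ITGB1, and none for ITGA4 and ITGA5. These arrays hold no methylation values, so no methylation state is given for either gene.

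Over 6 normalizations the log2 ratio of ITGB2 was -4.70 to -3.63 in MDS-L/CDA and -1.45 to -0.71 in MDS-L. That of ITGA4 in MDS-L was -1.79 to -1.06. Scaling to the median moved the median log2 ratio in MDS-L, taken over 19448 probes, from -0.15 to -0.69. With that scaling ITGA5, ITGAE and ITGB2 passed 2-fold in MDS-L as well.

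**Figure D5:**
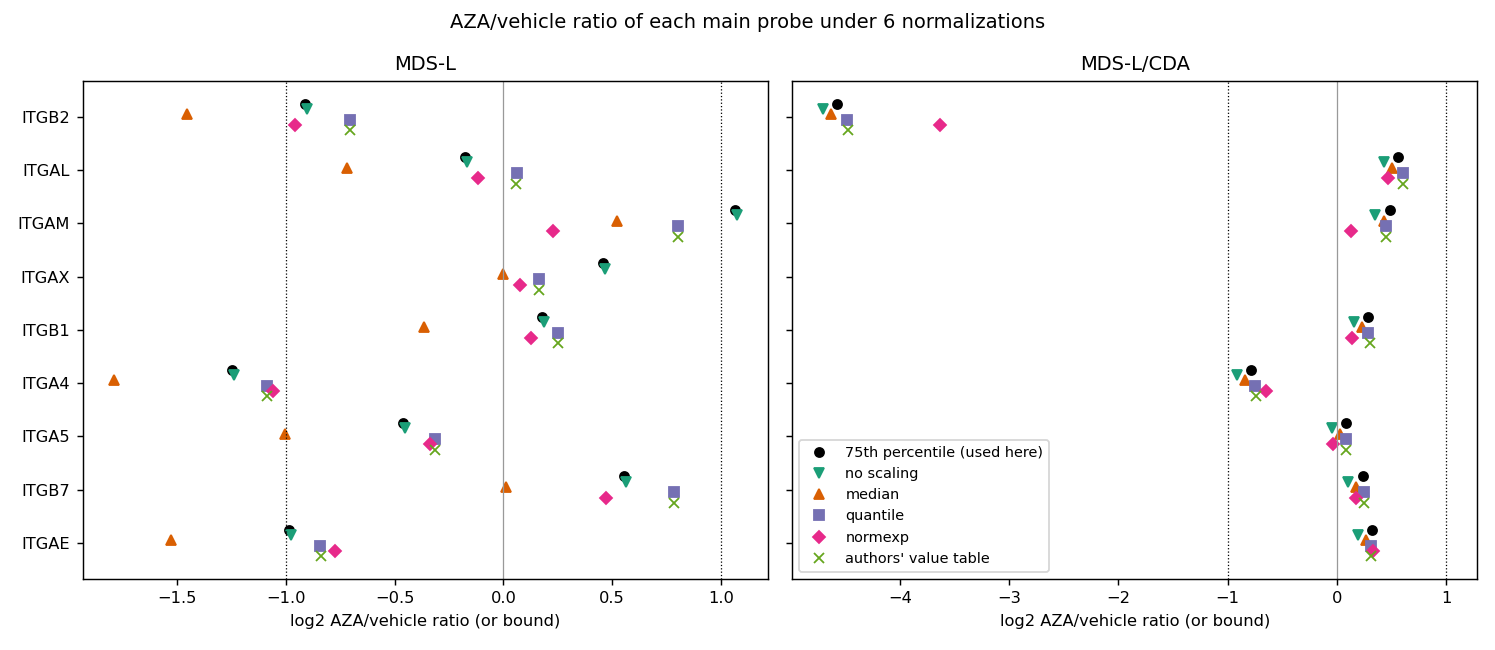
Log2 AZA/vehicle ratio of the brightest probe of 9 leukocyte integrins under 6 normalizations, in MDS-L (left) and MDS-L/CDA (right; the horizontal scales differ). Dotted lines mark 2-fold, and ITGAM and ITGAX are lower bounds. ITGB2 in MDS-L/CDA stays between -4.70 and -3.63 and ITGA4 in MDS-L between -1.79 and -1.06.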

How the data were processed

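RNA of 4 cultures was hybridized to 4 single-colour (Cy3) Agilent arrays with 60-base probes. The authors deposited the scanner intensity of every spot (Agilent Feature Extraction 10.7.1.1, hg19 probe positions), background-subtracted but not normalized between arrays, and a value table of intensity for 51680 probes that was normalized between arrays, by a method not given in the sources used here. From the scanner intensity, control spots, outlier spots and 16 probes without a usable spot were left out. Log2 signals were averaged per probe, and each array was centred on its 75th percentile. The brightest probe of a gene, by its mean over the arrays, stood for the gene. It was called at a ratio of at least 2, the brighter array being well above background and a dim one being raised at least to the background limit of its array. The ratio of 2 follows the methods of the study, whose Z score of 2 has no stated formula and was an alternative, with 10 bins of mean signal. That alternative used the computed signals of dim probes, not the background limit.

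The genes, gene lists and tests were chosen with earlier results of these data known. Named were all 10 integrins with every probe, called genes of each list (at most 4 per direction, list and line), marker lists, and the 5 genes nearest to ITGB2. The transcription factors, PXN, ICAM5, SYK, TLN1, FERMT3 and ICAM1 to ICAM3 were added after their values were seen. The sums of marker lists add scaled signals of different probes. With 1 array per condition no test was made, and the number of arrays limits the precision. The calling rule was tested on simulated data with noise of the spots only and with changes set in bright probes. That simulation held no variation between cultures or arrays, so it does not bear on the lack of replicates or on dim probes. The alternatives were 5 other normalizations (no scaling, median, quantile, normexp with offset 50, the authors' table), 3 filters on dim probes, 2 thresholds and 2 rules for several probes; centring on probes of like base content, the neighbouring spots and the base content limits came later, with the data in view. The software was Python 3.11.15, numpy 2.4.6, pandas 2.3.3, matplotlib 3.10.9, R 4.3.3 and limma 3.58.1 for normexp.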

Additional observations from a re-analysis of the deposited data

Results flagged for a closer look

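For 3 integrins the single AZA array lay on opposite sides of its vehicle array in the 2 lines, lower in MDS-L and higher in MDS-L/CDA, and with 1 array per condition this difference was not tested. The log2 AZA/vehicle ratio in MDS-L minus that in MDS-L/CDA was -1.31 for ITGAE, -0.738 for ITGAL and -0.547 for ITGA5. The spot SD for such a difference was 0.48, which holds no variation between cultures. For ITGAL and ITGA5 one of the 2 ratios changed sign under other normalizations.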

How the results depend on the processing

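ITGB2 was called lower with AZA in MDS-L/CDA, and lower in MDS-L/CDA than in MDS-L with AZA, under all 12 alternative settings, and ITGA4 was called lower with AZA in MDS-L under all 12. The number of integrins called with AZA in MDS-L, 2 as reported, was 4 with median scaling (ITGA4, ITGA5, ITGAE and ITGB2, all lower), 4 with no filter on background, 4 at a ratio of 1.5, 3 with computed signals for dim probes (ITGAX added), and 1 (ITGA4) with quantile normalization, normexp, the authors' table, both arrays well above background, or the Z score. In MDS-L/CDA it was 1 as reported, 3 with no filter, and 2 with computed signals for dim probes, a ratio of 1.5, the Z score, or any probe of a gene. Between the lines with vehicle it was 0 as reported, 2 with median scaling (ITGAE and ITGAL, lower in MDS-L/CDA), and 1 with no filter or any probe. With AZA it was 1 as reported and 2 with computed signals, no filter, a ratio of 1.5 or any probe. No call changed direction. Each change follows from the alternative's own construction, except that the cause of the differences between normalizations was not tested. In the comparisons between the lines, the log2 ratios of ITGB1, ITGB2, ITGB7, ITGA4 and ITGA5 with vehicle, and of ITGB1, ITGA4, ITGAL and ITGAM with AZA, changed sign under some normalizations. No paired analysis was possible because each condition had 1 array. ITGAD, ITGAX and ITGAM were near or under the background limit, so falls in them could not be seen.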
